A study of Homo sapiens with 12 samples.

Results

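The 46 genes described here make the proteins that copy DNA in S phase or supply that copying: the factors that license and fire replication origins, the DNA polymerases and primase, the sliding clamp and its loader, the single-strand binding protein, the enzymes that make DNA precursors, the E-type cyclins, and a chromatin assembly factor with a regulator of DNA methylation. They were chosen by name, with earlier results of these data known, and each was read on its brightest probe set. All 46 had a probe set that names a single gene and all 46 passed the filter on low signals, out of 19775 genes with such a probe set and 13185 genes tested. RNA was measured on 12 Affymetrix HG-U133 Plus arrays, 3 in each of 4 groups: PC9 in erlotinib, PC9 in DMSO, HCC827 in erlotinib and HCC827 in DMSO. PC9 and HCC827 are established human lung adenocarcinoma lines with activating mutations of the EGFR gene, and erlotinib is an inhibitor of the EGFR kinase. The cells were kept for 8 days in 2 micromolar erlotinib or in its solvent DMSO, in RPMI medium with 10% FBS, and medium and agent were renewed once after 4 days. The arrays therefore describe the cells that were harvested at day 8, in 2 lines that both carry a mutant form of the drug's target.

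Per the treatment notes, erlotinib cultures were plated with more cells, in 2 large flasks, and DMSO cultures with fewer, in 10 cm dishes, whereas the series design names flasks of 1 size for both. Starting cell number, vessel and drug cannot be told apart. Nothing says that the replicates were separate cultures, so the p-values measure the spread between these arrays, which may be technical. In bulk RNA, a smaller share of cells in S phase and less of these RNAs in each cell cannot be told apart.

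Origins are licensed in G1 when the origin recognition complex, CDC6 and CDT1 load the ring of MCM2 to MCM7 onto DNA, and geminin (GMNN) blocks CDT1 afterwards. Cyclin E with CDK2 and other kinases then fire the origins: CDC45 and the GINS complex join the ring to form the moving helicase, polymerase alpha with primase starts each strand, and polymerases epsilon and delta extend it on the PCNA clamp. Many of these genes are transcribed in a burst at the entry into S phase by E2F factors, which act downstream of growth factor receptors through the retinoblastoma protein.

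The authors' values are MAS5 signals on a linear scale, with the trimmed mean of every array at 150.014 to 150.016 and array medians of 11.1 to 14.5. Arrays of the same group correlated at 0.9929 to 0.9973 (Pearson, across all genes tested). All 6 epithelial markers were strongly expressed, with group means of 1519 to 3671, and the 4 leukocyte markers with a probe set stayed under the filter. NKX2-1, the lung lineage factor, averaged 47.3 in erlotinib-treated and 14.1 in DMSO-treated PC9, against 1934 in erlotinib-treated and 2088 in DMSO-treated HCC827, and the surfactant genes SFTPB and SFTPC did not exceed a group mean of 30.5 in either line. NAPSA, another lung lineage marker, averaged 59.7 in erlotinib-treated and 252 in DMSO-treated HCC827 (log2 change -1.94, adjusted p = 4.88e-09) and was low in PC9, at 10 in erlotinib and 3.93 in DMSO (log2 change 0.57). Of the 4 endothelial markers, PECAM1 and CDH5 passed the filter and were expressed in PC9, while VWF and KDR were near 0. In PC9 PECAM1 fell, with 506 in erlotinib against 835 in DMSO, and CDH5 rose, with 178 against 105 (log2 change 0.72, adjusted p = 3.99e-05). The summed endothelial signal was 653 to 705 on PC9 erlotinib arrays, against 895 to 988 on PC9 DMSO arrays, and at most 19.0 in HCC827. Of the fibroblast markers, COL1A1 and LUM rose in erlotinib in both lines, while PDGFRB and DCN were near 0. The summed fibroblast signal was 379.8 to 458.3 on PC9 erlotinib arrays, against 75.6 to 93.8 on PC9 DMSO arrays, and 609.8 to 673.7 on HCC827 erlotinib arrays, against 149.5 to 174.8 on HCC827 DMSO arrays. Their part in the results below was not tested. The actin 3'/5' ratio, a measure of RNA integrity and labelling, was 2.22 ± 0.271 on PC9 erlotinib and 2.18 ± 0.152 on PC9 DMSO arrays, and 3.03 ± 0.598 on HCC827 erlotinib and 2.17 ± 0.0563 on HCC827 DMSO arrays (SD, n = 3 each).

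Replication genes were lower in erlotinib in both lines. In PC9, 44 of the 46 fell and none rose, and POLD1 and RPA1 did not pass the test (limma on log2 of the signal plus 8, Benjamini-Hochberg adjusted p under 0.05 over all genes). Among all genes tested in PC9, 28.3% fell. The median log2 change of the 46 was -0.74 in PC9, against 0.05 over all genes tested. In HCC827, 41 of 46 fell and none rose, where 19.5% of all genes fell, and the median was -0.49 against 0.07. POLA1, POLD1, POLE, RPA2 and CCNE1 did not pass in HCC827. In both lines together, 40 of the 46 fell, against 11.6% of all genes. Tested against a 1.5-fold change in place of no change, 21 genes fell in PC9 and 4 in HCC827, against 5.01% and 1.81% of all genes.

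Falls of at least 2-fold were few. In PC9 they were 8 of 46 (ORC1, CDC6, CDT1, GINS2, GINS4, MCM10, POLE2 and PRIM1), against 3.41% of all genes. In HCC827 only CDT1 of the 46 reached that size, against 1.46%. The signal left in erlotinib was 59.4% of the DMSO signal for the median gene in PC9, with ORC1 lowest at 31.8% and RPA1 highest at 97.4%. In HCC827 it was 71.1%, with CDT1 lowest at 43.1% and CCNE1 highest at 111%. The 3 erlotinib arrays lay below all 3 DMSO arrays for 43 genes in PC9 and for 40 in HCC827, where 28.3% and 24.5% of all genes did so. Averaged over the 46 genes, log2 signals were 8.37, 8.47 and 8.49 on the PC9 erlotinib arrays, against 9.17, 9.19 and 9.19 on the PC9 DMSO arrays. In HCC827 they were 8.78, 8.78 and 8.85 on erlotinib arrays, against 9.30, 9.31 and 9.25 on DMSO arrays. Centring each array on its median moved the change of all genes by -0.15 in PC9 and by -0.07 in HCC827, and 44 and 41 members still fell. Under that centring the split of all genes in PC9 was 38% lower and 27% higher, in place of 28.3% lower and 36.3% higher.

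**Figure D1:**
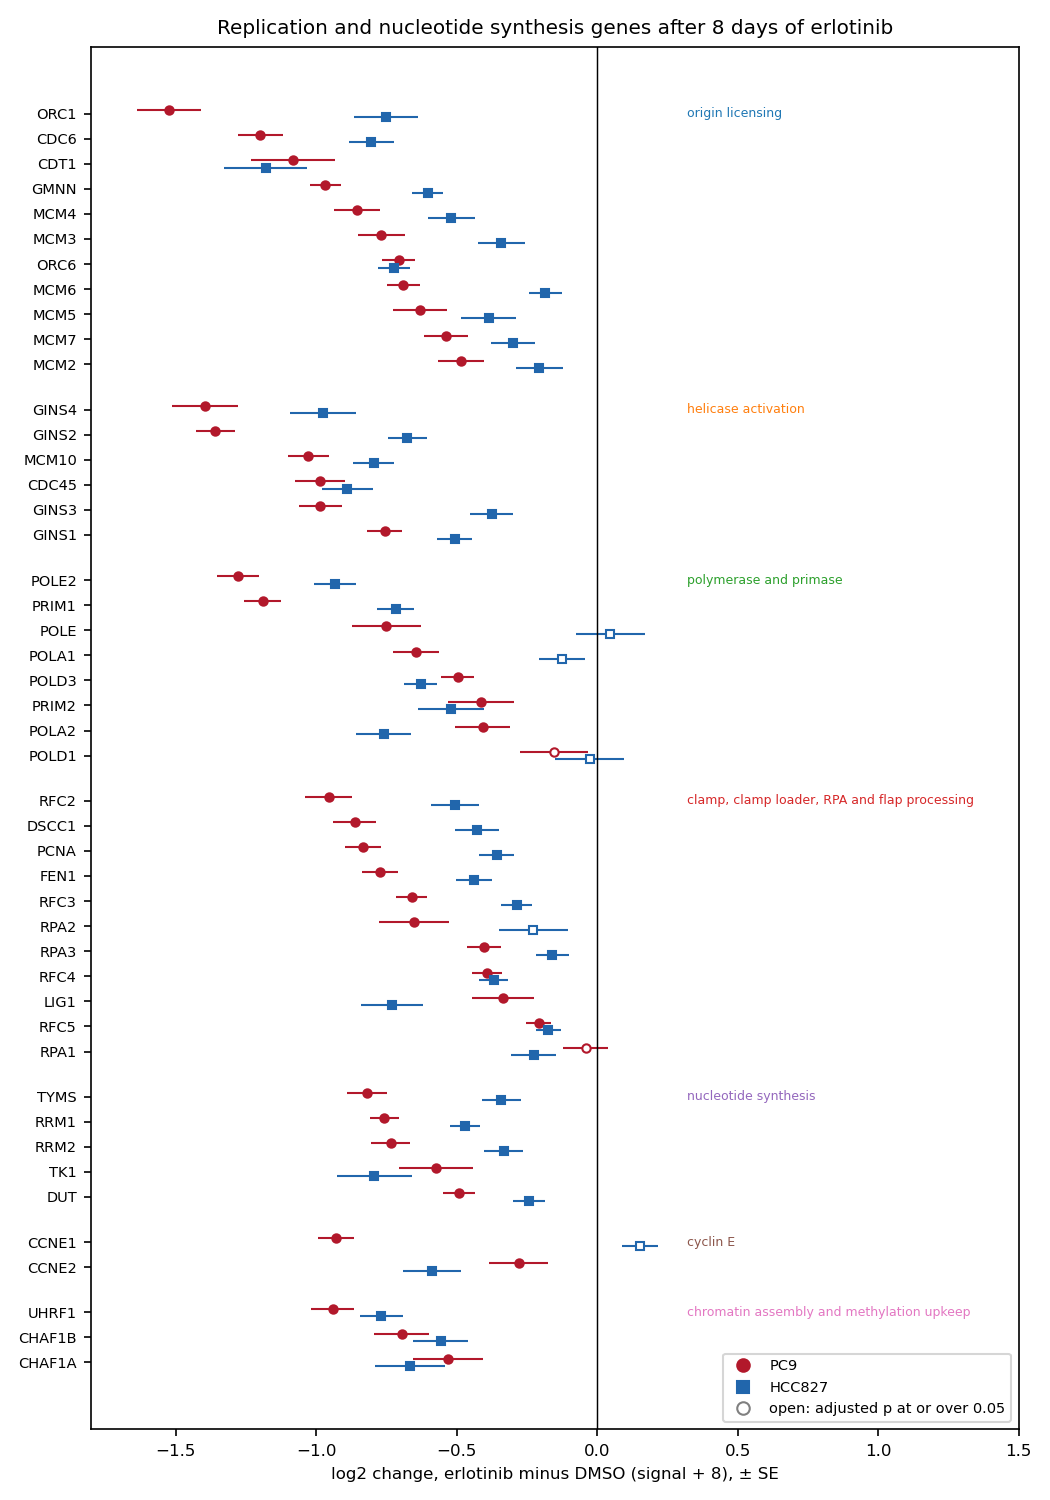
Log2 change in erlotinib relative to DMSO (horizontal axis, bars are the standard error) of each of the 46 genes, grouped by role, for PC9 (red circles) and HCC827 (blue squares), with open symbols for changes that did not pass. Nearly all points lie left of 0, between -1.52 for ORC1 in PC9 and 0.15 for CCNE1 in HCC827.

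**Figure D2:**
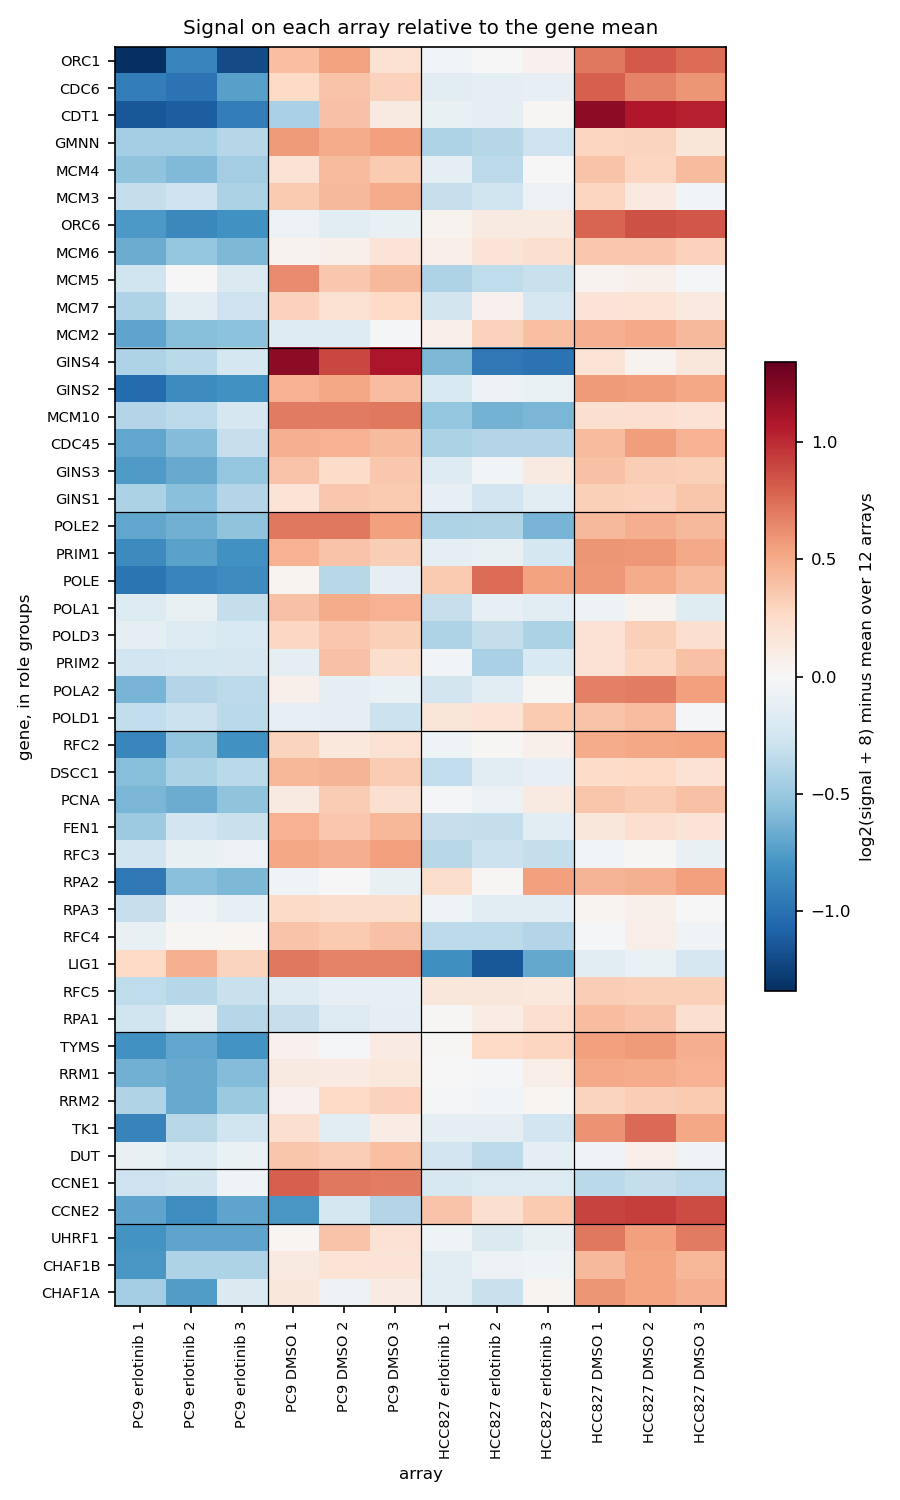
Log2(signal + 8) of each gene (rows, in role groups) on each of the 12 arrays (columns), minus the gene's mean over the arrays. Erlotinib columns are bluer than the DMSO columns of the same line in 44 rows for PC9 and 41 for HCC827 that passed the test, and the 3 replicates of a group look alike for most genes.

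E2F-type motifs stand in many promoters of these genes, and some of those promoters are printed here. RefSeq windows on GRCh38.p14, each running from 250 bases before an annotated start to 50 after it, were found for 38 of the 46 genes; MCM4, MCM5, GINS4, POLD3, DSCC1, RPA2, RPA3 and CCNE2 are named only. The motifs searched, on both strands, were TTTCCCGC, TTTGGCGC, TTTCGCGC and TTTGCCGC. The sequence TTTCGCGC can overlap itself on the opposite strand, as in MCM2, and can overlap TTTGGCGC, as in MCM6. At least 1 of the 4 was present for 20 of 38 genes (52.6%), against 1090 of 27305 genes with a window (3.99%) and 686 of 10692 tested genes (6.42%). CCAAT, the NF-Y motif, was present on either strand for 57.9%, against 39.7% of all genes with a window. The share of CCAAT among tested genes was not counted. To show where the motif sits, the stretch from 120 bases before the start to 20 after it is given below for 6 genes that have the largest fall in PC9 in their role group among members with a motif, 5′ to 3′ on the gene's strand, with the E2F-type motif in capitals. Positions count from the start as base 1, with -1 just before it.
GINS2, chr16:85688935-85689074, minus strand, motif from position -31.
GINS2: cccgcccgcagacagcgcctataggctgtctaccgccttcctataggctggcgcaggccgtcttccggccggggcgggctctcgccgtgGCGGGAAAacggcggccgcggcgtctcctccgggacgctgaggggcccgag
POLE2, chr14:49688195-49688334, minus strand, motif from position -5.
POLE2: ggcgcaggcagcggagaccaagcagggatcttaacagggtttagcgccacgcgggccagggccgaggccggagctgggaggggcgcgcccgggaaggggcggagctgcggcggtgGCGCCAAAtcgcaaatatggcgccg
CDC6, chr17:40287759-40287898, plus strand, motif from position 8.
CDC6: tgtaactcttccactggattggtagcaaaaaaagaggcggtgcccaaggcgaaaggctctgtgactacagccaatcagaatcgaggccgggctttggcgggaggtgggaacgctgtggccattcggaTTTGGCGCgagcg
UHRF1, chr19:4909381-4909520, plus strand, motif from position -14.
UHRF1: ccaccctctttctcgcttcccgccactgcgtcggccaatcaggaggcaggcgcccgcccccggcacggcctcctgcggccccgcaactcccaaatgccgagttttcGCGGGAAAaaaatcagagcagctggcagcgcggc
PCNA, chr20:5126603-5126742, minus strand, motif from position -59.
PCNA: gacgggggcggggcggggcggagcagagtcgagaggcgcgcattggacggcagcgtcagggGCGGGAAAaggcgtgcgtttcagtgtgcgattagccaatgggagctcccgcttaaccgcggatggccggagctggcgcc
TYMS, chr18:657533-657672, plus strand, motif from position -39.
TYMS: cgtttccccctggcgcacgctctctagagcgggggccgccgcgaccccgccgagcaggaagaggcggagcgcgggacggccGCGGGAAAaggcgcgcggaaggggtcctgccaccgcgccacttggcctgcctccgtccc

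Changes of members with and without a motif are given side by side, and the part of the motif in them was not tested. The 20 genes with a motif had a median log2 change of -0.76 in PC9 and -0.37 in HCC827, and 20 and 18 of them fell. The 18 with a window and no motif had medians of -0.72 in PC9 and -0.51 in HCC827, and 16 fell in each line. Among tested genes that are not members, 34.8% with a motif fell in PC9, against 28.0% without one, and in HCC827 24.8% fell, against 19.4%. ORC1, with the largest fall in PC9, has none of these letters in its window, which says nothing about the factors that bind there.

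Origin licensing genes all fell in both lines, though some HCC827 calls depended on the setting. The counts were 11 of 11 in PC9 (median log2 change -0.77) and 11 of 11 in HCC827 (median -0.52). ORC1, the largest subunit of the origin recognition complex, had signals of 43.8, 62.8 and 49 on the PC9 erlotinib arrays, against 164.9, 182 and 143 on the PC9 DMSO arrays. On the log2 scale ORC1 fell by 1.52 ± 0.11 in PC9 (adjusted p = 6.4e-09), the largest fall of the 46 genes there. In HCC827 its signals were 119.5, 123.6 and 128.7 on the HCC827 erlotinib arrays, against 205.8, 224.4 and 211.8 on the HCC827 DMSO arrays, and it fell by 0.75 ± 0.11 (adjusted p = 4.1e-05). The erlotinib and DMSO arrays of ORC1 did not overlap in either line. CDC6, which helps load the MCM ring, had signals of 162.5, 154.4 and 186.9 on the PC9 erlotinib arrays, against 381.7, 411.7 and 391.4 on the PC9 DMSO arrays. In HCC827 CDC6 had 285.7, 289.9 and 291.7 on the HCC827 erlotinib arrays, against 553.7, 504 and 478.1 on the HCC827 DMSO arrays. It fell by 1.20 ± 0.08 in PC9 and fell by 0.80 ± 0.08 in HCC827, with every erlotinib array below every DMSO array. CDT1, the partner of CDC6 in loading, had 83.3, 84.8 and 97.1 on the PC9 erlotinib arrays, against 139.9, 255.6 and 209.1 on the PC9 DMSO arrays. In HCC827 CDT1 had 178.4, 174.4 and 195.1 on the HCC827 erlotinib arrays, against 453.6, 414.7 and 403.3 on the HCC827 DMSO arrays. Its PC9 DMSO arrays were spread widely, yet all lay above the erlotinib arrays, as did those of HCC827. CDT1 fell by 1.08 ± 0.15 in PC9 and fell by 1.18 ± 0.15 in HCC827, the largest fall of the 46 genes in that line. GMNN, the inhibitor of CDT1, fell by 0.97 ± 0.06 in PC9 and fell by 0.60 ± 0.06 in HCC827, alongside its target. ORC6, a small subunit of the origin recognition complex, fell by 0.71 ± 0.06 in PC9 and fell by 0.72 ± 0.06 in HCC827.

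The 6 subunits of the MCM ring all fell in both lines, with medians of -0.66 in PC9 and -0.32 in HCC827. On the brightest probe sets, MCM4 had the largest fall of the ring in each line, -0.85 ± 0.08 in PC9 and -0.52 ± 0.08 in HCC827. MCM2 had the smallest in PC9 (-0.49 ± 0.08). Tested singly, the other probe set of MCM7 fell by 0.82 in HCC827, and those of MCM4 by 0.70, 0.79 and 0.81. MCM6 had the smallest fall in HCC827 on the brightest probe sets. Its signals were 651.5, 725.5 and 680.5 on the PC9 erlotinib arrays, against 1076.5, 1087.3 and 1169.5 on the PC9 DMSO arrays, and 1106.1, 1174.5 and 1209.6 on the HCC827 erlotinib arrays, against 1336.4, 1341.6 and 1288.4 on the HCC827 DMSO arrays. Both sets of MCM6 arrays were apart, by a wide gap in PC9 and a narrow one in HCC827. MCM6 fell by 0.69 ± 0.06 in PC9 (adjusted p = 2.78e-08) and fell by 0.18 ± 0.06 in HCC827 (adjusted p = 0.0142). Tested singly, its other probe set fell by 0.64 in PC9 and by 0.67 in HCC827. The difference between the lines on that probe set was 0.03 (adjusted p = 0.858). The HCC827 calls of MCM2 and MCM6 were lost in 7 and 2 of the 12 fits that leave out 1 array. Leaving out a PC9 array does not alter the HCC827 change, only its p-value. Without HCC827 erlotinib replicate 1 the change of MCM2 was -0.12 (adjusted p = 0.236) and that of MCM6 -0.15 (adjusted p = 0.0631).

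Helicase activation genes had the largest median falls of the 7 role groups, -1.01 in PC9 and -0.74 in HCC827, and all 6 fell in both lines. GINS2, a subunit of the GINS complex, had signals of 254.7, 292.2 and 298.4 on the PC9 erlotinib arrays, against 735.5, 759.2 and 707.9 on the PC9 DMSO arrays. In HCC827 the signals were 457.4, 499.7 and 496.7 on the HCC827 erlotinib arrays, against 790.6, 782.2 and 762.2 on the HCC827 DMSO arrays. The arrays of GINS2 did not overlap in either line, and it fell by 1.36 ± 0.07 in PC9 (adjusted p = 6.11e-11, the smallest of the 46) and fell by 0.68 ± 0.07 in HCC827. GINS4, another GINS subunit, had 51.8, 53.9 and 59.9 on the PC9 erlotinib arrays, against 175, 140.1 and 160.6 on the PC9 DMSO arrays, and 44.4, 33.1 and 32.2 on the HCC827 erlotinib arrays, against 82.5, 74.6 and 80.4 on the HCC827 DMSO arrays. It fell by 1.39 ± 0.12 in PC9 and fell by 0.98 ± 0.12 in HCC827, again with no overlap. GINS3 had 515.2, 543.3 and 606.4 on the PC9 erlotinib arrays, against 1144.3, 1042.2 and 1127.5 on the PC9 DMSO arrays, and 776.4, 853.3 and 954.2 on the HCC827 erlotinib arrays, against 1147, 1105.4 and 1094.3 on the HCC827 DMSO arrays. GINS3 fell by 0.98 ± 0.08 in PC9 and fell by 0.37 ± 0.08 in HCC827, that in HCC827 being the smallest of this role group in either line. GINS1 fell by 0.76 ± 0.06 in PC9 and fell by 0.51 ± 0.06 in HCC827. CDC45, which binds the MCM ring together with GINS, fell by 0.99 ± 0.09 in PC9 and fell by 0.89 ± 0.09 in HCC827. MCM10, which helps turn the loaded ring into an active helicase, fell by 1.03 ± 0.07 in PC9 and fell by 0.80 ± 0.07 in HCC827.

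The polymerase and primase genes were uneven. In PC9, 7 of 8 fell (median -0.57), and in HCC827, 5 of 8 (median -0.57). POLE2, the second subunit of polymerase epsilon, had 276.1, 286.5 and 307.6 on the PC9 erlotinib arrays, against 740.2, 740.7 and 666.1 on the PC9 DMSO arrays. In HCC827 it had 337.6, 338.8 and 289.4 on the HCC827 erlotinib arrays, against 614.6, 634.4 and 613.2 on the HCC827 DMSO arrays. It fell by 1.28 ± 0.08 in PC9 and fell by 0.93 ± 0.08 in HCC827, and its erlotinib arrays lay far below its DMSO arrays in both. POLE, the catalytic subunit of the same enzyme, was measured at low signals, 26, 28.3 and 29.3 on the PC9 erlotinib arrays, against 60.5, 43.9 and 53.6 on the PC9 DMSO arrays. In HCC827 POLE had 77.5, 104.7 and 89.6 on the HCC827 erlotinib arrays, against 92.5, 86.4 and 82.1 on the HCC827 DMSO arrays, where the 2 treatments overlapped. POLE fell by 0.75 ± 0.12 in PC9 (adjusted p = 5e-05), and its change in HCC827 was 0.05 ± 0.12 (adjusted p = 0.775). PRIM1, the catalytic primase subunit, had 267.9, 294.9 and 275.9 on the PC9 erlotinib arrays, against 683.1, 641.2 and 620.6 on the PC9 DMSO arrays. In HCC827 PRIM1 had 446.7, 458.1 and 416.2 on the HCC827 erlotinib arrays, against 746.4, 739.5 and 700.1 on the HCC827 DMSO arrays. It fell by 1.19 ± 0.07 in PC9 and fell by 0.72 ± 0.07 in HCC827, without overlap of the arrays. PRIM2, the large primase subunit, fell by 0.41 ± 0.12 in PC9 and fell by 0.52 ± 0.12 in HCC827.

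POLA1, the catalytic subunit of polymerase alpha, had 311.6, 331.2 and 283.3 on the PC9 erlotinib arrays, against 466.2, 502.7 and 491.2 on the PC9 DMSO arrays. In HCC827 POLA1 had 285.4, 328.9 and 317.7 on the HCC827 erlotinib arrays, against 337, 365.7 and 316.6 on the HCC827 DMSO arrays, with overlap. It fell by 0.65 ± 0.08 in PC9 (adjusted p = 2.96e-06), and its change in HCC827 was -0.13 ± 0.08 (adjusted p = 0.207). POLA2, the accessory subunit of the same enzyme, had 111.9, 132.8 and 137 on the PC9 erlotinib arrays, against 185.9, 161.8 and 165.5 on the PC9 DMSO arrays. In HCC827 POLA2 had 148.2, 158.8 and 179 on the HCC827 erlotinib arrays, against 286.8, 289 and 262.1 on the HCC827 DMSO arrays. Its arrays were apart in both lines, and it fell by 0.41 ± 0.10 in PC9 and fell by 0.76 ± 0.10 in HCC827. Averaged over its probe sets, including a probe set under the filter, POLA2 changed by -0.16 in PC9 (adjusted p = 0.0736). POLD1, the catalytic subunit of polymerase delta, had 32.5, 33.8 and 31.7 on the PC9 erlotinib arrays, against 39.2, 38.9 and 33.8 on the PC9 DMSO arrays. In HCC827 POLD1 had 49, 49.8 and 57 on the HCC827 erlotinib arrays, against 58.5, 59.9 and 42.2 on the HCC827 DMSO arrays. Its signals were low and overlapped in both lines, with changes of -0.15 ± 0.12 in PC9 (adjusted p = 0.283) and -0.03 ± 0.12 in HCC827 (adjusted p = 0.868). With quantile normalization POLD1 was called lower in PC9, at -0.39 (adjusted p = 0.0133). POLD3, an accessory subunit of polymerase delta, fell by 0.50 ± 0.06 in PC9 and fell by 0.63 ± 0.06 in HCC827.

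**Figure D3:**
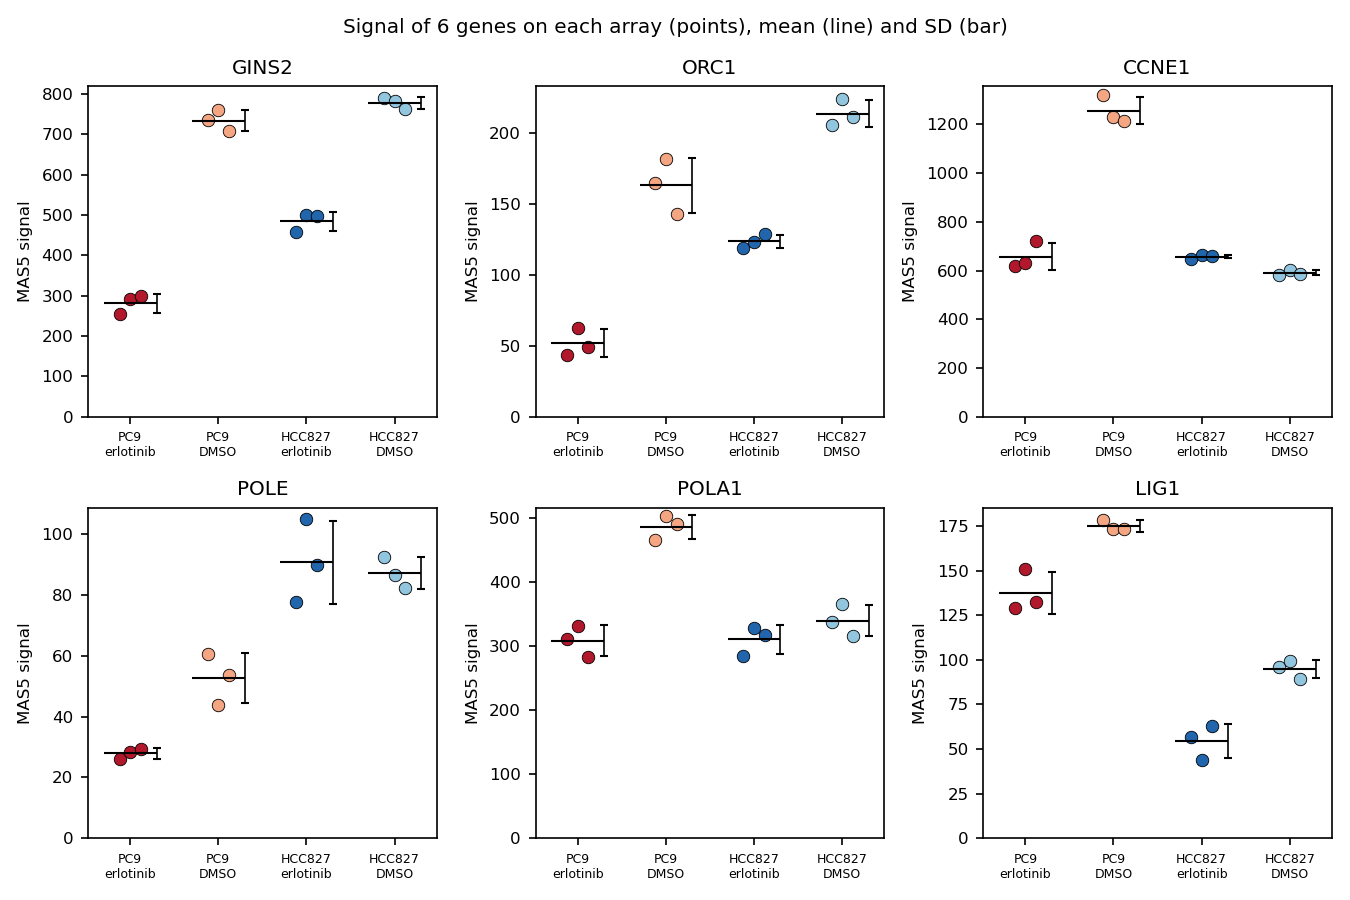
MAS5 signal (vertical axes, starting at 0) of 6 genes on each array, with the mean as a line and the SD as a bar (n = 3 per group). GINS2 and ORC1 are low in erlotinib in both lines, CCNE1, POLE and POLA1 in PC9 only by the test, and LIG1 by a larger factor in HCC827.

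Of the clamp, clamp loader, single-strand binding and flap processing genes, 10 of 11 fell in PC9 (median -0.65) and 10 of 11 in HCC827 (median -0.36). RFC2, a subunit of the clamp loader, had 218.4, 280.5 and 229 on the PC9 erlotinib arrays, against 505, 450.7 and 471.7 on the PC9 DMSO arrays. In HCC827 RFC2 had 391, 414.2 and 428.2 on the HCC827 erlotinib arrays, against 580.2, 589.4 and 590.6 on the HCC827 DMSO arrays. It fell by 0.96 ± 0.08 in PC9 and fell by 0.51 ± 0.08 in HCC827, with the treatments apart in both. DSCC1, of the alternative clamp loader that acts in sister chromatid cohesion, had 233.8, 259.4 and 271.9 on the PC9 erlotinib arrays, against 479.3, 484.3 and 446.4 on the PC9 DMSO arrays. In HCC827 DSCC1 had 278.3, 315.3 and 325.6 on the HCC827 erlotinib arrays, against 416.6, 422.9 and 403.2 on the HCC827 DMSO arrays. It fell by 0.86 ± 0.08 in PC9 and fell by 0.43 ± 0.08 in HCC827, and no erlotinib array reached a DMSO array. PCNA, the sliding clamp, fell by 0.83 ± 0.06 in PC9 and fell by 0.36 ± 0.06 in HCC827. Among the other loader subunits, RFC3 fell by 0.66 ± 0.06 in PC9 and fell by 0.29 ± 0.06 in HCC827, RFC4 fell by 0.39 ± 0.05 and fell by 0.37 ± 0.05, and RFC5 fell by 0.21 ± 0.04 and fell by 0.17 ± 0.04. FEN1, which cuts the flaps between Okazaki fragments, fell by 0.77 ± 0.06 in PC9 and fell by 0.44 ± 0.06 in HCC827.

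The 3 subunits of RPA, the protein that coats single-stranded DNA, had median changes of -0.40 in PC9 and -0.23 in HCC827. RPA1, the largest subunit, had 798.7, 897.9 and 734.7 on the PC9 erlotinib arrays, against 773.2, 845.4 and 878.5 on the PC9 DMSO arrays. In HCC827 RPA1 had 973.5, 1024.9 and 1120.4 on the HCC827 erlotinib arrays, against 1281.2, 1253.1 and 1118.5 on the HCC827 DMSO arrays. The treatments overlapped in both lines; the change was -0.04 ± 0.08 in PC9 (adjusted p = 0.672), while the gene fell by 0.23 ± 0.08 in HCC827 (adjusted p = 0.0262). RPA2 had 89.8, 121.1 and 118 on the PC9 erlotinib arrays, against 175.3, 181.3 and 170 on the PC9 DMSO arrays. In HCC827 RPA2 had 217.1, 184.5 and 271.3 on the HCC827 erlotinib arrays, against 252.7, 258.2 and 271.9 on the HCC827 DMSO arrays, with overlap. RPA2 fell by 0.65 ± 0.12 in PC9, and its change in HCC827 was -0.23 ± 0.12 (adjusted p = 0.137), or -0.37 (adjusted p = 0.0188) without HCC827 erlotinib replicate 3. RPA3 fell by 0.40 ± 0.06 in PC9 and fell by 0.16 ± 0.06 in HCC827. The HCC827 calls of RPA1 and RPA3 were each lost in 4 of the 12 fits. All these losses came without an HCC827 array, and leaving out a PC9 array does not alter the HCC827 change. The adjusted p reached 0.108 for RPA1 (without DMSO replicate 1) and 0.107 for RPA3 (without erlotinib replicate 2). With the actin ratio as a covariate RPA3 changed by -0.02 in HCC827 (adjusted p = 0.888). Without erlotinib replicates 2 and 3, which leaves 1 array in that group, RPA3 changed by -0.10.

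LIG1, the ligase that joins Okazaki fragments, had 129.1, 150.7 and 132.2 on the PC9 erlotinib arrays, against 178.6, 173.2 and 173.1 on the PC9 DMSO arrays. In HCC827 LIG1 had 56.5, 44 and 63.1 on the HCC827 erlotinib arrays, against 95.7, 99.6 and 89.5 on the HCC827 DMSO arrays. The arrays did not overlap, and LIG1 fell by 0.34 ± 0.11 in PC9 (adjusted p = 0.0132) and fell by 0.73 ± 0.11 in HCC827 (adjusted p = 3.69e-05). Without PC9 erlotinib replicate 1 the adjusted p in PC9 was 0.0506.

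All 5 nucleotide synthesis genes fell in both lines, with medians of -0.74 in PC9 and -0.34 in HCC827. TYMS, thymidylate synthase, had 561, 610.9 and 566 on the PC9 erlotinib arrays, against 1032.4, 983.4 and 1069.4 on the PC9 DMSO arrays. In HCC827 TYMS had 1005.8, 1196.4 and 1217.3 on the HCC827 erlotinib arrays, against 1453.8, 1476.7 and 1392.5 on the HCC827 DMSO arrays. TYMS fell by 0.82 ± 0.07 in PC9 and fell by 0.34 ± 0.07 in HCC827, and its treatments were apart in both lines. RRM1, the large subunit of ribonucleotide reductase, had 577.8, 567.3 and 603.7 on the PC9 erlotinib arrays, against 986, 979.9 and 1006.2 on the PC9 DMSO arrays. In HCC827 RRM1 had 903.2, 896.7 and 969.1 on the HCC827 erlotinib arrays, against 1295.1, 1289.9 and 1258.7 on the HCC827 DMSO arrays. RRM1 fell by 0.76 ± 0.05 in PC9 and fell by 0.47 ± 0.05 in HCC827, again without overlap. Its small partner subunit RRM2 fell by 0.74 ± 0.07 in PC9 and fell by 0.33 ± 0.07 in HCC827. DUT, which removes dUTP before it can enter DNA, had 1974, 1884.9 and 1987.5 on the PC9 erlotinib arrays, against 2749.3, 2669.9 and 2808.5 on the PC9 DMSO arrays. In HCC827 DUT had 1771.1, 1659.9 and 1933.7 on the HCC827 erlotinib arrays, against 2031.4, 2256 and 2055.3 on the HCC827 DMSO arrays. Its erlotinib arrays stayed below its DMSO arrays, with changes of -0.49 ± 0.06 in PC9 and -0.24 ± 0.06 in HCC827. TK1, the S phase thymidine kinase of the salvage route, fell by 0.57 ± 0.13 in PC9 and fell by 0.79 ± 0.13 in HCC827.

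The E-type cyclins behaved differently from each other. CCNE1 had 617.9, 631.8 and 721.4 on the PC9 erlotinib arrays, against 1320.8, 1232 and 1216.2 on the PC9 DMSO arrays. In HCC827 CCNE1 had 648.9, 662.5 and 660.9 on the HCC827 erlotinib arrays, against 583, 602.8 and 586.3 on the HCC827 DMSO arrays, so that all erlotinib arrays lay above all DMSO arrays by a small margin. CCNE1 fell by 0.93 ± 0.06 in PC9 (adjusted p = 2.29e-09), and its change in HCC827 was 0.15 ± 0.06 (adjusted p = 0.0554). That value sat at the edge of the threshold: with quantile normalization it was 0.17 (adjusted p = 0.0336). CCNE2 had 286.2, 262.9 and 286.6 on the PC9 erlotinib arrays, against 272.5, 401 and 358.1 on the PC9 DMSO arrays. In HCC827 CCNE2 had 620.3, 549.3 and 606.4 on the HCC827 erlotinib arrays, against 894.1, 909.4 and 875.3 on the HCC827 DMSO arrays. In PC9 the lowest DMSO array was within the range of the erlotinib arrays, and in HCC827 the treatments were apart. CCNE2 fell by 0.28 ± 0.10 in PC9 (adjusted p = 0.0265) and fell by 0.59 ± 0.10 in HCC827 (adjusted p = 0.00018). Without PC9 DMSO replicate 2 its change in PC9 was -0.16 (adjusted p = 0.159). The call was also lost without PC9 DMSO replicate 3 (adjusted p = 0.0898) or PC9 erlotinib replicate 2 (adjusted p = 0.0878). Tested singly, the other probe set of CCNE2 fell by 0.61 in PC9 (adjusted p = 9.51e-05) and by 0.92 in HCC827 (adjusted p = 2.53e-06).

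The chromatin genes fell in all 3 cases in both lines, with medians of -0.70 in PC9 and -0.67 in HCC827. UHRF1, which brings the maintenance DNA methyltransferase to newly copied DNA, had 675.5, 718 and 719.7 on the PC9 erlotinib arrays, against 1205.4, 1543.6 and 1348.1 on the PC9 DMSO arrays. In HCC827 UHRF1 had 1135.1, 1027.1 and 1102 on the HCC827 erlotinib arrays, against 1935.9, 1735.9 and 1910.3 on the HCC827 DMSO arrays. UHRF1 fell by 0.94 ± 0.08 in PC9 and fell by 0.77 ± 0.08 in HCC827, with wide gaps between treatments. CHAF1B, a subunit of the chromatin assembly factor that deposits histones behind the fork, had 79, 104.3 and 104.4 on the PC9 erlotinib arrays, against 154.8, 161.4 and 161.3 on the PC9 DMSO arrays. In HCC827 CHAF1B had 128, 134.2 and 136 on the HCC827 erlotinib arrays, against 193.8, 208 and 195.4 on the HCC827 DMSO arrays. CHAF1B fell by 0.70 ± 0.10 in PC9 and fell by 0.56 ± 0.10 in HCC827. CHAF1A, the large subunit of that factor, had 99.1, 80.2 and 121.3 on the PC9 erlotinib arrays, against 156, 132.9 and 151.9 on the PC9 DMSO arrays. In HCC827 CHAF1A had 126, 112.2 and 143.8 on the HCC827 erlotinib arrays, against 215.2, 205 and 198.1 on the HCC827 DMSO arrays. CHAF1A fell by 0.53 ± 0.12 in PC9 and fell by 0.67 ± 0.12 in HCC827, and neither it nor CHAF1B overlapped between treatments.

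The change was lower in PC9 than in HCC827 for 36 of the 46 genes, and the difference between the lines was itself tested. The PC9 change minus the HCC827 change was called lower, that is a larger fall or a smaller rise in PC9, for 24 genes and higher for 2, where 23.9% of all genes were lower and 21.2% higher. Its median was -0.28 over the 46 genes and -0.02 over all genes tested. CCNE1 differed most, at -1.08 ± 0.09 (adjusted p = 8.92e-08). POLE followed at -0.80 ± 0.17 (adjusted p = 0.00145), ORC1 at -0.77 ± 0.16 (adjusted p = 0.00101) and GINS2 at -0.68 ± 0.10 (adjusted p = 3.44e-05). GINS3 stood at -0.61 ± 0.11 (adjusted p = 0.000252) and POLA1 at -0.52 ± 0.11 (adjusted p = 0.00162). The 2 genes with the opposite sign were LIG1, at 0.39 ± 0.15 (adjusted p = 0.0475), and POLA2, at 0.35 ± 0.14 (adjusted p = 0.0468).

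By role group, the difference was called lower for 6 of 11 licensing genes, 3 of 6 helicase activation genes, 4 of 8 polymerase and primase genes, 6 of 11 clamp and fork processing genes, 4 of 5 nucleotide synthesis genes, 1 of 2 E-type cyclins and 0 of 3 chromatin genes. Role group medians were -0.33 for licensing, -0.33 for helicase activation, -0.24 for polymerase and primase, -0.33 for clamp and fork processing, -0.29 for nucleotide synthesis and -0.14 for the chromatin genes. For CDT1 the difference was 0.10 ± 0.21 (adjusted p = 0.734), and for CDC45 -0.10 ± 0.13 (adjusted p = 0.561), neither past the threshold. Across the 46 genes the changes in PC9 and HCC827 had a Pearson correlation of 0.50 and a Spearman correlation of 0.50, given as a description; within a line all genes share the same arrays. With each gene averaged over its probe sets the difference was called lower for 17 genes and higher for 3. Of all genes in that setting, 20.7% were lower and 23.3% higher. The calls of GINS2 (-0.29, adjusted p = 0.0501), TYMS (-0.17, adjusted p = 0.235), RRM1 (-0.01), DUT (-0.04), MCM4 (-0.05), RFC3 (-0.23) and DSCC1 (-0.20) were then lost, and CCNE2 was called higher (0.31, adjusted p = 0.0296). That average took in probe sets under the filter, which GINS2, MCM4 and DSCC1 have. Every probe set of TYMS, RRM1, DUT and RFC3 passed the filter. Of the 26 calls, 20 held when each array was left out in turn. Those of LIG1, POLA2, GINS1, MCM4, RPA3 and DUT were lost in at least 1 of the 12 fits, LIG1 in 10 (adjusted p up to 0.131, without HCC827 erlotinib replicate 2) and POLA2 in 8 (up to 0.107, without HCC827 erlotinib replicate 1). The actin ratio was higher on the HCC827 erlotinib arrays. With that ratio as a covariate, 19 genes were lower in the difference and 35 lower in HCC827. The shares of all genes dropped too, to 16.8% lower in the difference and 12.1% lower in HCC827, from 23.9% and 19.5%. The fit without HCC827 erlotinib replicates 2 and 3 leaves 1 array in that group, so calls from it are not counted. Its medians over the 46 genes were -0.30 in the difference and -0.51 in HCC827.

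**Figure D4:**
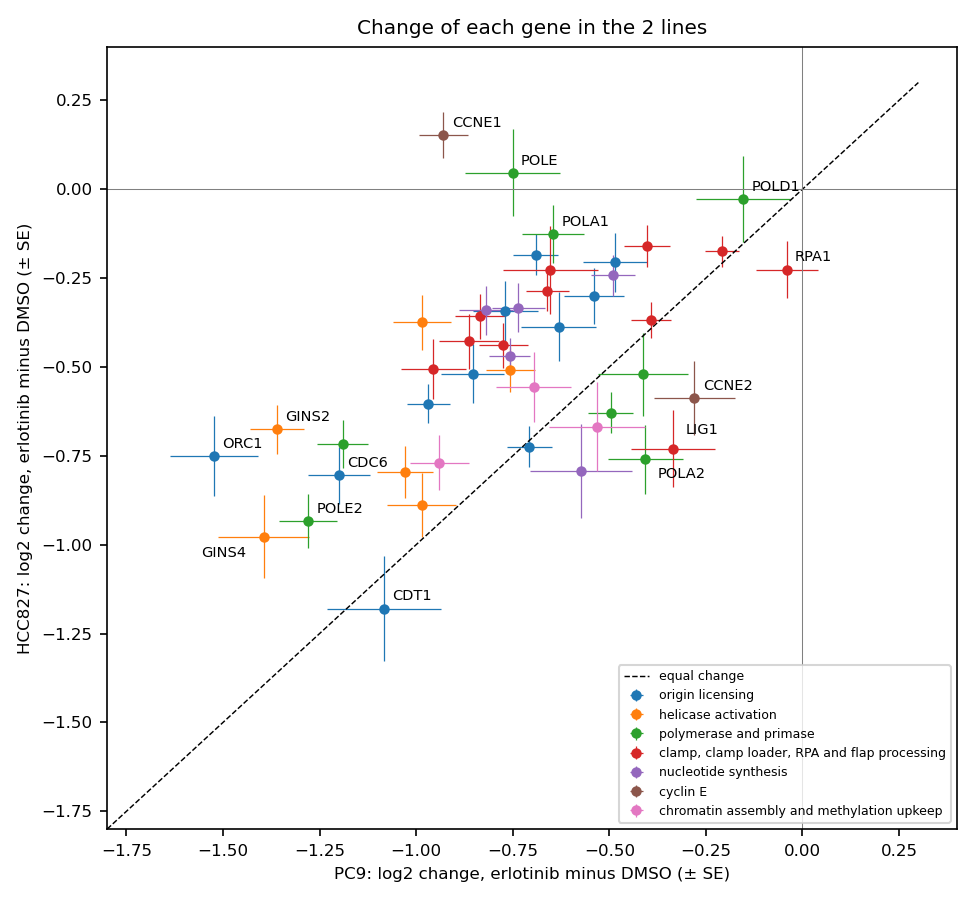
Log2 change in erlotinib relative to DMSO in PC9 (horizontal axis) and in HCC827 (vertical axis) for the 46 genes, coloured by role, with standard errors and a dashed line of equal change. Of the points, 36 lie above the dashed line, where the change was lower in PC9, with CCNE1 and POLE farthest above it and LIG1 and POLA2 below it.

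The lines also differed within a treatment, in comparisons that use the same arrays as the drug comparisons. In DMSO the shares of the 46 genes that were called were close to those of all genes. Without drug, PC9 in DMSO was lower than HCC827 in DMSO for 21 genes and higher for 15, where 39.4% and 36.8% of all genes were lower and higher. Under erlotinib, PC9 was lower than HCC827 for 28 genes and higher for 6, where 40.1% and 36.3% of all genes were. The median of PC9 minus HCC827 was -0.35 in erlotinib and -0.12 in DMSO, against -0.04 and -0.02 over all genes. In DMSO, CCNE1 was higher in PC9, by 1.08 ± 0.06 on the log2 scale (adjusted p = 1.36e-10). On the mean of its probe sets CCNE1 was higher by 0.36, but its only other probe set was under the filter, with group means of 0.73 to 7.43. CCNE2 (-1.37 ± 0.10) and CDT1 (-1.08 ± 0.15) were lower in PC9 than in HCC827 in DMSO. In erlotinib CCNE1 was level between the lines, at 657 ± 56.2 in PC9 and 657 ± 7.43 in HCC827 (SD, n = 3 each), with a difference of -0.00 ± 0.06 (adjusted p = 0.956). Among the 46 genes, the lines were farthest apart in erlotinib for POLE (-1.45 ± 0.12), LIG1 (1.23 ± 0.11), ORC1 (-1.15 ± 0.11) and CCNE2 (-1.07 ± 0.10).

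The falls were seen on more than 1 probe set where a gene had several, but their size depended on the probe set, more so in HCC827. The 46 genes had 87 probe sets, and 24 genes had another one that passed the filter, 35 in all. Tested singly, 31 of these 35 fell in PC9 and 31 in HCC827, and none rose in either. Over all probe sets tested singly, 26.2% fell and 34% rose in PC9, and 21.8% fell and 26.2% rose in HCC827. The median change of the 35 was -0.78 in PC9 and -0.70 in HCC827, against -0.71 and -0.49 on the brightest probe sets of the same 24 genes. The other probe set showed the larger fall for 22 of 35 in PC9 and 24 of 35 in HCC827. For RFC5 the 2 other probe sets changed by -1.001 and -1.097 in PC9 and by -0.76 and -1.05 in HCC827, where the brightest changed by -0.21 and -0.17. RRM1 changed by -1.14 on its other probe set in HCC827 and by -0.47 on its brightest. DUT changed by -1.11 and -0.60 on its other probe sets in HCC827 and by -0.24 on its brightest. For GINS4 the other 2 probe sets gave smaller falls in PC9, -0.43 and -0.89, than the brightest (-1.39). The difference between the lines was called lower on 5 of the 35 other probe sets, against 12 of the 24 brightest, with medians of -0.10 and -0.27. Over all probe sets tested singly 18.6% were called lower, so the other probe sets of these genes did not exceed that share.

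**Figure D5:**
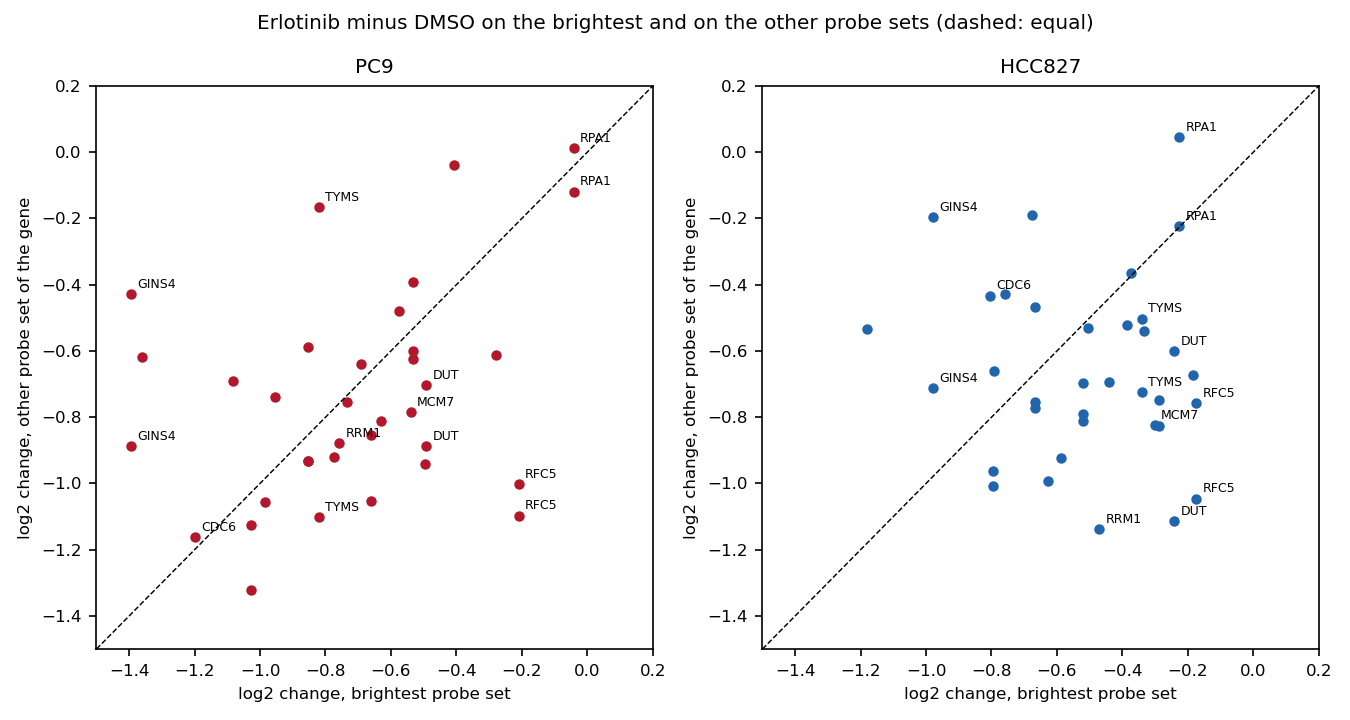
Log2 change in erlotinib relative to DMSO on each other probe set that passed the filter (vertical axes, 35 probe sets of 24 genes) against the change on the gene's brightest probe set (horizontal axes), for PC9 and HCC827, with a dashed line of equality. Points below the dashed line, 22 in PC9 and 24 in HCC827, have a larger fall on the other probe set, and RFC5 lies farthest below it in PC9.

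The rest of the pathway, read against the same shares of all genes, mostly moved the same way, with exceptions in nucleotide metabolism. Of 32 other replication factors, 28 fell and 1 rose in PC9 (median -0.56), and 23 fell and 2 rose in HCC827 (median -0.44). TIPIN, of the fork protection complex, fell by 1.11 ± 0.08 in PC9 and fell by 0.77 ± 0.08 in HCC827, and DBF4, the activating subunit of the CDC7 kinase, fell by 1.06 ± 0.08 in PC9 and fell by 0.84 ± 0.08 in HCC827. CDCA7, a partner of the chromatin remodeller HELLS, fell by 0.98 ± 0.06 in PC9 and fell by 0.46 ± 0.06 in HCC827. CLSPN, the checkpoint mediator claspin, fell by 0.82 ± 0.14 in PC9 and fell by 1.48 ± 0.14 in HCC827, and the histone chaperone ASF1B fell by 0.79 ± 0.08 in PC9 and fell by 0.85 ± 0.08 in HCC827. The exceptions, chosen with their values in view, were the small polymerase delta subunit POLD4, which rose by 0.60 ± 0.10 in PC9, and ORC3 and RNASEH2C, which rose by 0.29 ± 0.08 and 0.39 ± 0.10 in HCC827.

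Of 15 regulators of S phase entry, 8 fell and 2 rose in PC9 (median -0.52) and 9 fell and 1 rose in HCC827 (median -0.37). MYBL2, a transcription factor of cycling cells, fell by 1.21 ± 0.10 in PC9 and fell by 0.97 ± 0.10 in HCC827, and the retinoblastoma relative RBL1 fell by 1.14 ± 0.13 in PC9 and fell by 0.91 ± 0.13 in HCC827. CDC25A, the phosphatase that activates CDK2, fell by 1.13 ± 0.10 in PC9 and fell by 0.75 ± 0.10 in HCC827. E2F2 fell by 1.05 ± 0.11 in PC9 and fell by 0.91 ± 0.11 in HCC827, while E2F1 had 131 ± 5.32 in erlotinib-treated and 159 ± 14.9 in DMSO-treated PC9 and did not pass in either line (-0.26 ± 0.11, adjusted p = 0.0535 in PC9; -0.26 ± 0.11, adjusted p = 0.0623 in HCC827). The call of E2F1 depended on the setting: averaged over its probe sets it was lower in both lines (-0.30, adjusted p = 0.000702 in PC9; -0.34, adjusted p = 0.000374 in HCC827), as it was with median centring (-0.41 and -0.34), whereas with the actin covariate it was 0.07 in HCC827. The cyclin-dependent kinase inhibitors CDKN1A (0.31 ± 0.12 in PC9) and CDKN1B (0.23 ± 0.07 in PC9, 0.33 ± 0.07 in HCC827) were the exceptions that rose, chosen with their values in view, and with median centring neither was called in PC9. CCNA2, cyclin A of S phase, fell by 0.63 ± 0.07 in PC9 and fell by 0.37 ± 0.07 in HCC827.

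The supply of precursors was less uniform. Of 16 tested genes of dNTP synthesis and salvage other than the 5 above, 10 fell and 1 rose in PC9 (median -0.31), and 8 fell and 3 rose in HCC827 (median -0.10). The exceptions that rose, chosen with their values in view, were the mitochondrial thymidine kinase TK2 in PC9, and DCTD, NME4 and the mitochondrial SHMT2 in HCC827. With the actin ratio as a covariate, 2 of the 16 fell in HCC827, where 12.1% of all genes fell in that fit. NME2 was found only on probe sets that name several genes. SHMT1, a serine hydroxymethyltransferase that feeds thymidylate synthesis with one-carbon units, fell by 0.91 ± 0.10 in PC9 and fell by 0.49 ± 0.10 in HCC827. DTYMK, thymidylate kinase, fell by 0.82 ± 0.09 in PC9 and fell by 0.67 ± 0.09 in HCC827, and the nucleoside diphosphate kinase NME1 fell by 0.86 ± 0.06 in PC9 and fell by 0.18 ± 0.06 in HCC827. With the actin covariate the HCC827 calls of SHMT1 (-0.25, adjusted p = 0.185) and NME1 (-0.11, adjusted p = 0.414) were lost. CMPK2, a mitochondrial kinase of pyrimidine nucleotides that interferon induces, fell by 1.33 ± 0.11 in HCC827. In PC9 all 6 arrays of CMPK2 were under the filter, with means of 3.2 in erlotinib and 4.43 in DMSO, so a fall could not be seen there. RRM2B, the reductase subunit used outside S phase, passed in neither line: its change was 0.24 ± 0.18 in PC9 (adjusted p = 0.261) and 0.10 ± 0.18 in HCC827 (adjusted p = 0.65).

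Ring synthesis genes mostly fell in PC9, whereas in HCC827 their shares were close to those of all genes or below them. Of 17 tested genes of purine and pyrimidine ring synthesis, 13 fell and 3 rose in PC9 (median -0.50), whereas 4 fell and 4 rose in HCC827 (median -0.07) (1 and 1 with the actin ratio as a covariate). Over all genes 28.3% fell and 36.3% rose in PC9, and 19.5% fell and 32.2% rose in HCC827. With the covariate 12.1% of all genes fell and 19.4% rose in HCC827. ADSS2 is not analysed here. The difference between the lines was called lower for 11 of the 17 and higher for 1, with a median of -0.43. GART, a trifunctional enzyme of purine synthesis, fell by 0.90 ± 0.18 in PC9 and fell by 0.56 ± 0.18 in HCC827, a call lost without HCC827 erlotinib replicate 2 (-0.35, adjusted p = 0.107). IMPDH1, of guanine nucleotide synthesis, fell by 0.92 ± 0.18 in PC9 and rose by 0.51 ± 0.18 in HCC827. That rise was not called with quantile normalization (adjusted p = 0.0598), with median centring (adjusted p = 0.0545), with the actin covariate (0.23, adjusted p = 0.557), without HCC827 erlotinib replicate 3 or without any 1 of the HCC827 DMSO replicates. CTPS2, a CTP synthase, rose by 0.25 ± 0.07 in PC9 and 0.87 ± 0.07 in HCC827, but on the mean of its probe sets the PC9 change was -0.01. PRPS1, which makes the ribose donor, rose by 0.20 ± 0.07 in PC9 and fell by 0.27 ± 0.07 in HCC827, and ADSL, of the purine route, fell by 0.47 ± 0.06 in PC9 and rose by 0.16 ± 0.06 in HCC827, both named after their values were seen. ADSS1, the muscle-type adenylosuccinate synthase, rose by 0.98 ± 0.13 in PC9 and 0.52 ± 0.13 in HCC827, but averaged over its probe sets the HCC827 change was 0.13 (adjusted p = 0.338).

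Of 10 nucleotide breakdown genes tested, to be read against the same shares of all genes, 4 fell and 1 rose in PC9 and 5 fell and 1 rose (ADA, adenosine deaminase, by 0.65 ± 0.15, named after its value was seen) in HCC827, and TYMP and UPP2 stayed under the filter. XDH, xanthine dehydrogenase, fell by 2.15 ± 0.10 in PC9 and changed by -0.23 ± 0.10 (adjusted p = 0.0708) in HCC827, where quantile normalization gave -0.31 (adjusted p = 0.0141). UPP1, uridine phosphorylase, fell by 1.41 ± 0.09 in PC9 and fell by 0.57 ± 0.09 in HCC827, and PNP, purine nucleoside phosphorylase, fell by 1.35 ± 0.07 in PC9 and fell by 0.54 ± 0.07 in HCC827. NT5E, the surface nucleotidase CD73, fell by 0.46 ± 0.05 in PC9 and fell by 1.40 ± 0.05 in HCC827. DPYD, which degrades pyrimidine bases, fell by 1.02 ± 0.13 in HCC827, and its change in PC9 was -0.13 ± 0.13 (adjusted p = 0.387), or -0.36 (adjusted p = 0.0229) with quantile normalization. CDA, cytidine deaminase, rose by 1.00 ± 0.10 in PC9 and fell by 0.81 ± 0.10 in HCC827.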

How the data were processed

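RNA from 4 groups of 3 samples was hybridised to Affymetrix arrays. The deposited intensity values are the authors' MAS5 signals, one per probe set, per the submitters' processing notes; the MAS5 version is not given in the sources used here. Every array has nearly the same trimmed mean (2% trimmed), so a change in total RNA per cell could not be seen, and the number of arrays limits the precision.

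Of 54675 probe sets, 62 were controls. Gene symbols came from the platform table: 41091 probe sets named 1 gene, 1801 several and 11721 none, and only the first kind was used. Each gene was read on its brightest probe set, by mean log2 signal. A gene was tested if its mean signal was at least 13 (the median of the table) in at least 1 group. Signals were taken as log2(signal + 8), a scale that understates the change of low genes, and fitted with limma (version 3.58.1, R 4.3.3; group means over all 12 arrays, eBayes with trend). P-values were Benjamini-Hochberg adjusted over the 13185 genes tested, and calls use adjusted p under 0.05. The fit was tested on simulated data. Promoter windows came from RefSeq (GRCh38.p14) and were searched with Python 3.11.15 and pandas 2.3.3. No sample or array was dropped or imputed.

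All 46 members and the lists were chosen with earlier results of these data known, and so were the alternatives with the actin ratio and without HCC827 erlotinib replicates 2 and 3. Values on every array are given for the 2 members of each role group with the largest fall in PC9, the 1 with the smallest change in either line, every member not called in a line, and up to 6 each way with the largest difference between the lines. Of each other list, up to 3 called genes with the largest change per line are named, plus RRM2B, E2F1 and CCNA2. A further gene of that rule is not reported here. Alternatives changed the added constant, the normalization, the filter, the choice of probe set, the variance trend, the arrays in the fit, a replicate block, a test against a 1.5-fold change and single replicates. The mean over all probe sets of a gene took in probe sets under the filter.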

Additional observations from a re-analysis of the deposited data

Results flagged for a closer look

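For 26 of the 46 genes and 15 of the genes named by rule from the other lists, the change in PC9 differed from that in HCC827. The test was of the difference itself (limma, adjusted p between 2.77e-08 and 0.0475 over these 41 genes). Of all genes tested, 23.9% were called lower and 21.2% higher in this difference. The rule mostly took the largest changes of each list, and genes outside it were not counted here. All values are the PC9 log2 change minus the HCC827 log2 change. Among licensing genes the difference was -0.77 for ORC1, -0.39 for CDC6, -0.36 for GMNN, -0.43 for MCM3, -0.33 for MCM4 and -0.51 for MCM6. In helicase activation it was -0.25 for GINS1, -0.68 for GINS2 and -0.61 for GINS3. In the polymerase and primase group it was -0.52 for POLA1, 0.35 for POLA2, -0.47 for PRIM1, -0.80 for POLE and -0.35 for POLE2. At the clamp and in fork processing it was -0.48 for PCNA, -0.45 for RFC2, -0.37 for RFC3, -0.44 for DSCC1, -0.24 for RPA3, -0.33 for FEN1 and 0.39 for LIG1. In nucleotide synthesis it was -0.29 for RRM1, -0.40 for RRM2, -0.48 for TYMS and -0.25 for DUT, and of the cyclins CCNE1 stood at -1.08. Averaged over the probe sets of a gene, the differences of GINS2, MCM4, RFC3, DSCC1, RRM1, TYMS and DUT were not called. For GINS2, MCM4 and DSCC1 that average includes a probe set under the filter.

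Of the other replication factors and regulators of S phase entry, TIPIN differed by -0.35, CLSPN by 0.66, CDCA7 by -0.52 and CDC25A by -0.37. Averaged over their probe sets CLSPN (0.16, adjusted p = 0.345) and CDC25A (-0.06, adjusted p = 0.647) were not called. Of the genes of dNTP and ring synthesis, CMPK2 differed by 1.18, NME1 by -0.68, SHMT1 by -0.43, IMPDH1 by -1.43 and CTPS2 by -0.61. CMPK2 was under the filter on every PC9 array, so a fall could not be seen there and its difference is set by HCC827. Of the breakdown genes, UPP1 differed by -0.84, PNP by -0.80, XDH by -1.92, NT5E by 0.94, DPYD by 0.89 and CDA by 1.81. Averaged over their probe sets SHMT1 (-0.19, adjusted p = 0.272) and DPYD (0.22, adjusted p = 0.326) were not called. The largest of these 41 differences in size were those of XDH and CDA, genes of nucleotide breakdown rather than of DNA replication.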

How the results depend on the processing

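Changes of single genes kept their direction and side of the threshold in 1209 of 1241 gene and setting pairs in PC9. In HCC827 they did so in 1154 of 1241, and for the difference between the lines in 1043 of 1195. The pairs of PC9 and HCC827 include fits without an array of the other line, which cannot alter the change itself. Calls of at least a 1.5-fold change were fewer: 21 genes lower in PC9, 4 lower in HCC827, and 1 lower and 0 higher in the difference. Between the lines they were 3 lower and 2 higher in DMSO, and 10 lower and 1 higher in erlotinib. Of all genes, 5.01% were lower in PC9, 1.81% lower in HCC827, and 3.75% lower and 4.81% higher in the difference. Between the lines 16.1% of all genes were lower and 13.3% higher in DMSO, and 16.2% lower and 13.8% higher in erlotinib. CCNE1 was the 1 gene called higher in HCC827 with quantile normalization, with the mean of all probe sets and with the 6 arrays of that line alone. The mean for CCNE1 takes in a probe set under the filter. The 2 genes higher in the difference became 1 with the constant at 1 and with the constant at 32. They became 0 with quantile normalization, median centring, no filter, probe sets tested singly, the replicate block and the actin ratio covariate. Leaving out each array in turn gave 43 to 44 genes lower in PC9, 37 to 41 lower and 0 to 1 higher in HCC827, and 21 to 26 lower and 0 to 3 higher in the difference. Between the lines it gave 20 to 22 lower and 13 to 15 higher in DMSO and 27 to 29 lower and 6 to 7 higher in erlotinib. The replicate numbers did not pair the samples (correlations of deviations between -0.255 and -0.0201 in PC9 and between 0.0106 and 0.131 in HCC827), and a replicate block gave 44 genes lower in PC9, 41 in HCC827 and 26 in the difference.

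Values that changed sign were small, and all but 1 belonged to genes not called in that comparison. In the difference, ORC6 was -0.0548 with median centring and -0.00654 to 0.0403 when single arrays were left out. CDT1 was -0.0366 with quantile normalization, -0.0310 averaged over its probe sets and -0.135 (without PC9 DMSO replicate 1) to 0.28 with single arrays left out, and PRIM2 was -0.0856 without HCC827 erlotinib replicates 2 and 3 and -0.0371 to 0.22 with single arrays left out. RFC4 was 0.0836 and RFC5 0.0746 with quantile normalization, and RFC4 was -0.0682 to 0.0147 with single arrays left out. POLD1 was -0.20 to 0.0138 with single arrays left out, TK1 -0.0560 with the actin covariate, and CHAF1A -0.00262 with quantile normalization and -0.00204 to 0.27 with single arrays left out. In HCC827, POLD1 was -0.17 to 0.0503 with single arrays left out. POLE there was -0.0230 with quantile normalization, -0.0289 with median centring, -0.0270 with the actin covariate, -0.151 without erlotinib replicates 2 and 3 and -0.0551 to 0.14 with single arrays left out. Also in HCC827, XDH was 0.0592 averaged over its probe sets, RRM2B -0.0851 to 0.34 with single arrays left out and E2F1 0.0734 with the actin covariate. In PC9, RPA1 was 0.00296 with quantile normalization and -0.12 to 0.0267 with single arrays left out. The exception was CTPS2, called higher in PC9, which was -0.0104 averaged over its probe sets. For these sign changes the cause was not tested. Low signal limits CMPK2, which was under the filter on every PC9 array.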
